A study of Mus musculus with 8 samples.

Results

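Muscle contractile and cytoskeletal genes of the uterus were compared between Nr2f2 f/f and Nr2f2 d/d mice. The set holds 39 genes chosen by symbol, for muscle actins, myosin and its switch, thin-filament proteins, filaments and attachment proteins, excitation and calcium handling, and regulators of transcription. All 39 were among the 24963 genes of the table. The members and the lists compared below were chosen with earlier results of these data known. Their shares beside all genes are therefore not independent of the data. Whole uteri were taken at gestation day 3.5 from 4 control mice (Nr2f2 f/f), with floxed alleles but no Cre, and from 4 Nr2f2 d/d mice (Pgr Cre/+; Nr2f2 f/f), where a Cre inserted at 1 Pgr allele deletes the floxed gene in Pgr-expressing cells alone, so that the groups also differ at Pgr. The strain label was C57B6/J for both groups, and the labels put mating at 8 weeks of age. Mating was with vasectomized males, and neither group held embryos. Each mouse gave 1 library, and mRNA abundance was deposited as FPKM, the number of fragments scaled to gene length and library total. A whole uterus contains epithelium, stroma, vessels and myometrium, so fewer muscle cells and less RNA per muscle cell cannot be told apart.

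Smooth muscle contracts when calcium, entering through voltage-gated channels or released from stores, activates myosin light chain kinase, which phosphorylates the myosin regulatory light chain and lets myosin pull on actin. The filaments are tied to dense bodies and to plaques in the membrane, and relaxation follows when a phosphatase removes the phosphate. In the uterus the myometrium keeps quiet during pregnancy under progesterone and contracts at term, when oxytocin acts through its receptor.

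By FPKM steps in short genes of 1 exon, the libraries held about 61450000 to 77900000 fragments in controls and 61800000 to 92550000 in Nr2f2 d/d. Nr2f2 itself measured 24.1 ± 1.80 FPKM in controls and 8.93 ± 1.36 in Nr2f2 d/d (SD, n = 4 each), with a log2 fold change of -1.39 (limma, adjusted p = 0.00549). The defining smooth muscle genes Myh11, Acta2, Actg2, Des and Cnn1 were abundant in all 8 libraries, at 77.3 FPKM or above. Differences were tested with limma on log2(FPKM + 0.5) over the 14323 genes that averaged 0.5 FPKM or more, and adjusted by the Benjamini-Hochberg method over all of them. Of the members, 38 passed this filter and Ryr2 did not. Nr2f2 d/d replicates 1 and 4 held the lowest and the highest levels of most members in their group, and counts without each of them are given with the account of the libraries.

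Actc1, the cardiac muscle actin, and Oxtr, the oxytocin receptor, were the 2 of 38 tested members with an adjusted p under 0.05, and both rose in Nr2f2 d/d. They are 5.26% of the members tested, beside 2.62% of all genes tested. These counts moved when 1 library was left out, with 1 member past the threshold in each such fit except that without Nr2f2 f/f replicate 2, where both passed. All genes past it fell from 375 to 42 without Nr2f2 d/d replicate 2, 57 without Nr2f2 d/d replicate 1, and 62, 208 and 95 without Nr2f2 f/f replicates 1, 3 and 4. In the higher direction that threshold was passed by 1.09% of all genes, and in the lower direction, where 0 members passed, by 1.53%. At the looser threshold that the study's methods set, a raw p under 0.05 with a 1.4-fold change or more, Hspb7 and Pln joined Actc1 and Oxtr, all higher in Nr2f2 d/d, although Pln did not meet it in 3 of the 8 fits that left out 1 library. These 4 members are 10.5% of those tested, beside 8.80% of all genes, of which 4.70% were higher and 4.10% lower. Values did not overlap between the groups in 2 members that were higher in Nr2f2 d/d and in 1 that was lower, beside 5.49% and 9.91% of all genes. With both directions counted, the share of the members at the study's threshold was near that of all genes, and all 4 members were in the higher direction. The median log2 fold change was 0.14 over the 38 members and -0.02 over all genes, with 29 members higher and 9 lower. The members' median was 0.28 without Nr2f2 d/d replicate 1, 0.03 without Nr2f2 d/d replicate 4, and 0.07 and 0.23 without control replicates 2 and 4, respectively. The fit estimated members less precisely than other genes, with a median standard error of 0.204 on the log2 scale beside 0.125.

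**Figure D1:**
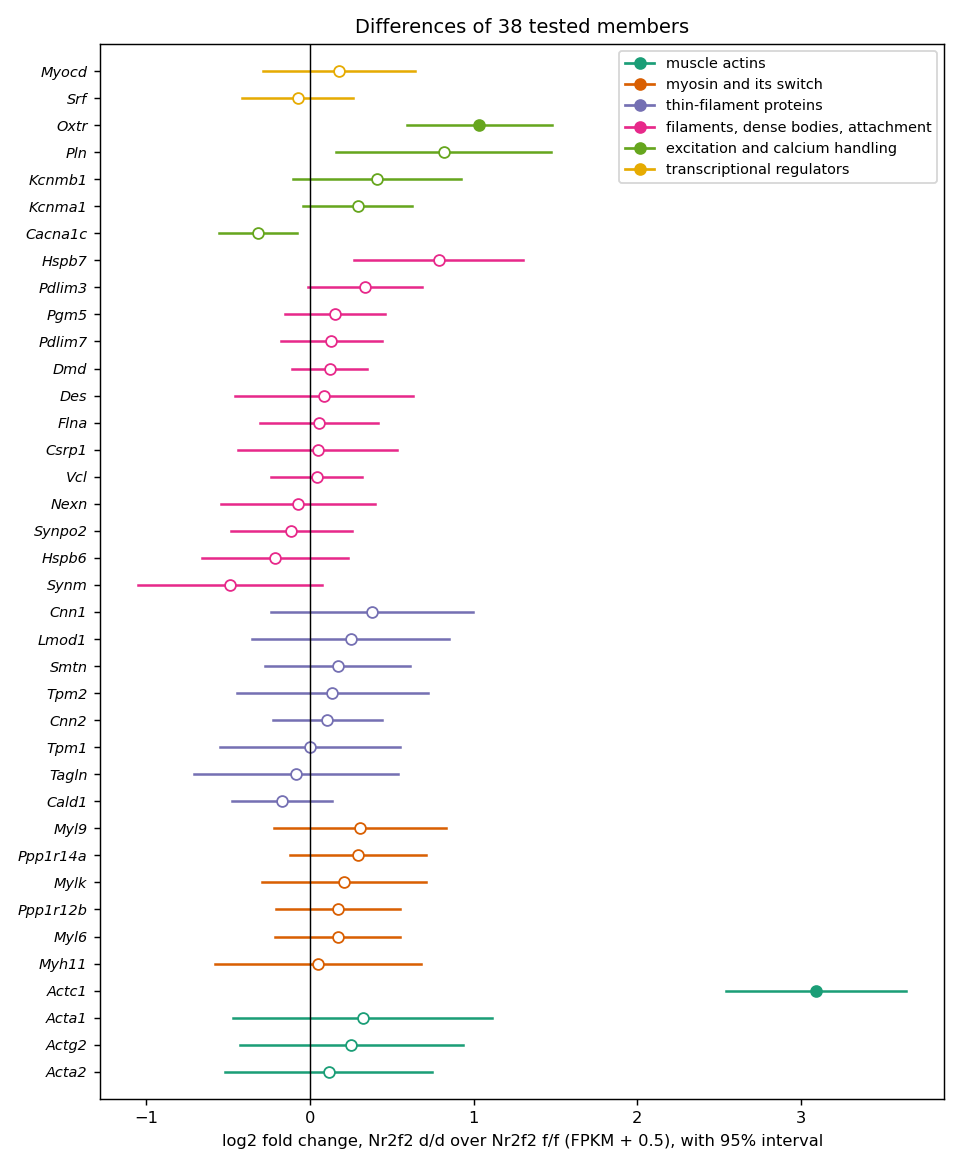
Log2 fold change of Nr2f2 d/d over Nr2f2 f/f (x axis, on FPKM + 0.5) for the 38 tested members (rows, coloured by role). Lines are 95% intervals by limma and filled points have an adjusted p under 0.05. Actc1 stands at 3.09 and Oxtr at 1.04, and most intervals include 0.

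Actc1 was near absent from control uteri and present in every Nr2f2 d/d uterus. Its level was 0.022, 0.045, 0.097 and 0.033 FPKM in control replicates 1 to 4, and 2.61, 5.92, 3.35 and 5.77 FPKM in Nr2f2 d/d replicates 1 to 4. The groups did not overlap, and the lowest Nr2f2 d/d uterus was far above the highest control. The log2 fold change was 3.09 (standard error 0.239, adjusted p = 0.00514, limma), and it passed the threshold in all 8 fits that left out 1 library. This fold is on FPKM + 0.5 and understates the difference. At the annotated exon length, the control values amount to about 22 fragments in the 4 libraries together and those of Nr2f2 d/d to 2294, a depth-scaled ratio of 86.9 with a 95% interval of 57.3 to 139 for counting error alone. Control replicate 3 holds about 12.2 of these control fragments, and without it the ratio was 135 (interval 73.2 to 281), where leaving out any other library gave 72.8 to 95.9. In the controls 3 fragments are worth 0.0238 to 0.0302 FPKM, so replicate 1 of Nr2f2 f/f lay below that floor. At this length control replicates 1 to 4 come to 2.25, 4.48, 12.2 and 3.28 fragments, which are not whole numbers. The length behind the deposited FPKM may therefore differ from the annotated one, and the fragment counts and the floor are approximate. Actc1 occupies positions 114047282 to 114053548 of chromosome 2 (minus strand, mm10, GENCODE vM21). Its longest coding transcript shared no run of 76 bases, the read length, with a transcript of another gene.

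The other muscle actins were far more abundant and did not pass either threshold. Acta2, the vascular and smooth muscle alpha-actin and the most abundant of the 4, had 376, 297, 427 and 530.0 FPKM in control replicates 1 to 4, and 276, 480, 401 and 652 FPKM in Nr2f2 d/d replicates 1 to 4. The Nr2f2 d/d values reached both below and above those of the controls. Its log2 fold change was 0.11, with a 95% interval of -0.52 to 0.75 (adjusted p = 0.848, limma). Actg2, the gamma-actin typical of visceral smooth muscle, had 185 ± 47.1 and 228 ± 93.0 FPKM, and Acta1, the skeletal muscle actin, 20.1 ± 7.79 and 24.7 ± 8.86 FPKM, in controls and Nr2f2 d/d (SD, n = 4 each). Their log2 fold changes of 0.25 and 0.32 had adjusted p-values of 0.661 and 0.627 by limma. Within the summed FPKM of the 4 actins, Actc1 made up 0.00831% in controls and 0.625 ± 0.132% in Nr2f2 d/d. The share of Acta2 was 66.6 ± 1.32% and 64.0 ± 1.84%, and that of Actg2 30.1 ± 0.634% and 31.9 ± 2.01%. Exact permutation tests of these shares between the groups gave p = 0.0286 for Actc1, 0.0857 for Acta2, 0.171 for Actg2 and 0.600 for Acta1. Adjusted over the 8 shares computed, no p was below 0.229. Actc1 remained the least abundant of the 4 in Nr2f2 d/d.

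**Figure D2:**
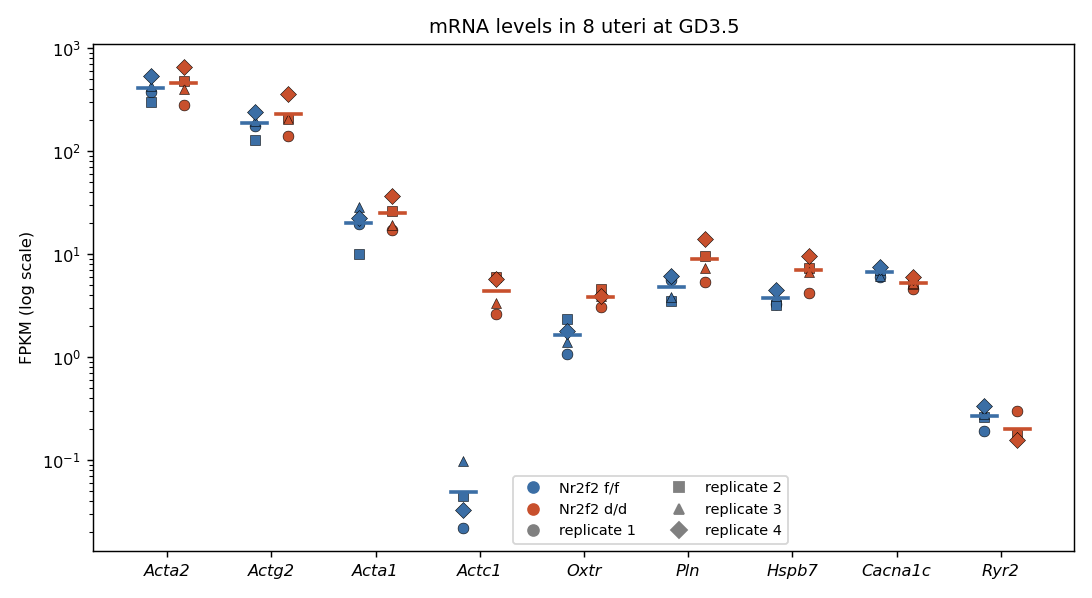
FPKM in each of the 8 uteri (y axis, log scale) for the 4 muscle actins and 5 other members, with marker shape for the replicate and a bar at each group mean (n = 4). Actc1 lies below 0.1 FPKM in every Nr2f2 f/f uterus and above 2.6 in every Nr2f2 d/d uterus, while the other actins overlap.

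Markers of skeletal and cardiac muscle held 1 gene past the adjusted threshold, Tnni2. Of 20 skeletal muscle markers, 6 were abundant enough to test, 4 higher and 2 lower. Tnni2, the inhibitory troponin of fast fibres, rose from 4.82 ± 1.48 to 18.2 ± 6.85 FPKM (log2 fold change 1.77, adjusted p = 0.0333, limma). Tnnt3 and Tnni1, other skeletal troponins, showed log2 fold changes of 0.91 and 0.75 (adjusted p = 0.0726 and 0.151, limma). The summed FPKM of the list was 10.6 to 17.4 in controls and 20.4 to 37.3 in Nr2f2 d/d, and 7.54 to 11.3 and 10.8 to 13.7 without Tnni2. Of 13 cardiac markers 5 were tested, 3 higher and 2 lower, 0 past the adjusted threshold, with sums of 11.1 to 21.5 and 18.9 to 32.3 FPKM, and of 8.33 to 11.04 and 9.77 to 11.4 without Tnnt2. Tnnt2, the cardiac troponin T gene, had 7.71 ± 3.67 and 15.6 ± 5.25 FPKM (log2 fold change 1.06, adjusted p = 0.205, limma), with Myl3 at 0.58 and Tnnc1 at -0.30 (0.246 and 0.375). The defining striated myosins were near 0, with Myh6 at 0.013 to 0.049 FPKM and Myh7 at 0.002 to 0.013 over the 8 libraries. Myh4 and Nkx2-5 were listed at 0 in every library.

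Actc1 is known as a target of serum response factor (SRF), which binds the CArG box, a run of 6 A or T between CC and GG that reads alike on both strands. RefSeq promoter windows were available for 34 of the 39 members, and 8 of them (23.5%) held a CArG box within 250 bases before a start site, beside 1.62% of 27025 genes. The 8 were Acta1, Actc1, Cnn2, Dmd, Myl6, Myl9, Srf and Vcl. In Myl6 all 250 bases of the window with the box are annotated as exon of the gene, and its other window held 0 boxes. The 3 stretches shown are those of Actc1, of Acta1 as an actin with a box and no called difference, and of Srf, the factor's own gene, with the box in capitals. They run 5′ to 3′ on the minus strand, from chr2:114052888-114053125, chr8:123894776-123895025 and chr17:46556176-46556412 of GRCm38.p6 (mm10), and leave out bases annotated as exon in GENCODE vM21, where the Actc1 stretch is intronic in a longer transcript.
Actc1: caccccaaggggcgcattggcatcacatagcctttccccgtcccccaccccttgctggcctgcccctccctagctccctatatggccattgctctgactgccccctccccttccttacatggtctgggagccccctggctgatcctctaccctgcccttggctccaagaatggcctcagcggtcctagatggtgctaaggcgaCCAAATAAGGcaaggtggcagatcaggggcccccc
Acta1: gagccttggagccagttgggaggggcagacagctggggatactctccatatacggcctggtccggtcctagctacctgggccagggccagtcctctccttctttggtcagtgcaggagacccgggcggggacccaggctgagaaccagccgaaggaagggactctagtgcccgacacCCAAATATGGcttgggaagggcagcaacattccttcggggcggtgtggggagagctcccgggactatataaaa
Srf: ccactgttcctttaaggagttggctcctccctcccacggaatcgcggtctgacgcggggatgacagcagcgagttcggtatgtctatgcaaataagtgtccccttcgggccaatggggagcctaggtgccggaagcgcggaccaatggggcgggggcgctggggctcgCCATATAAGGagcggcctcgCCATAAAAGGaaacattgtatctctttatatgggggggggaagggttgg
The box started 47 bases before the RefSeq start site in Actc1, 73 in Acta1, and 82 and 62 in Srf. With all 8 libraries, Actc1 passed both thresholds and the other 7 members with a box passed neither. Whether SRF has a part in any of these differences was not tested. A match is a match of letters only, and members without one may hold sites of other letters or outside this window. The hexamer that nuclear receptors such as NR2F2 recognise, AGGTCA or GGGTCA on either strand, was found in the windows of 4 of 34 members, Csrp1, Dmd, Oxtr and Ryr2, beside 26.4% of all genes. In Oxtr it started 98 bases before the RefSeq start site, in bases that GENCODE annotates as exon.

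Genes of myosin and of its phosphorylation switch did not pass either threshold, 6 of 6. Myl6, the essential light chain and the most abundant member of all, had 789, 670.3, 745 and 886 FPKM in control replicates 1 to 4, and 698, 974, 758 and 1082 FPKM in Nr2f2 d/d replicates 1 to 4. The groups overlapped, with replicate 4 the highest of each. Its log2 fold change was 0.17, with a 95% interval of -0.21 to 0.55. Myh11, the smooth muscle myosin heavy chain, had 150.1 ± 25.9 FPKM in controls and 164 ± 67.0 in Nr2f2 d/d, a log2 fold change of 0.05 with an interval of -0.58 to 0.68. Log2 fold changes were 0.31 for Myl9, the regulatory light chain, 0.21 for Mylk, the kinase that activates it, and 0.17 and 0.29 for Ppp1r12b and Ppp1r14a, a targeting subunit and an inhibitor of the phosphatase. The adjusted p-values of these 6 genes were 0.384 or above in limma's test. Myh11 made up 60.1 ± 7.38% of the heavy chains Myh9, Myh10 and Myh11 in controls and 62.6 ± 11.6% in Nr2f2 d/d (SD, n = 4 each, exact permutation p = 0.743).

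Thin-filament proteins ran in both directions, with 5 of 8 higher, 3 lower and 0 past either threshold. Tagln, an actin-binding protein long used as a smooth muscle marker, had 494, 486, 473 and 539 FPKM in control replicates 1 to 4, and 307, 551, 365 and 786 FPKM in Nr2f2 d/d replicates 1 to 4. The controls lay close together, and 2 Nr2f2 d/d uteri lay below and 2 above all of them. Its log2 fold change of -0.08 had a 95% interval of -0.71 to 0.54. Other genes on the opposite strand share 67.9% of the exon bases of Tagln, and whether the counting used the strand is not given in the sources used here. Cnn1, a calponin that restrains actomyosin, had 101 ± 17.3 and 138 ± 54.3 FPKM (log2 fold change 0.38, adjusted p = 0.449, limma). Cald1, caldesmon, had the lowest log2 fold change of the group, -0.17, and Tpm1 and Tpm2, the tropomyosins, had -0.0020 and 0.14. Lmod1, which nucleates actin filaments, Smtn, smoothelin, and Cnn2 had 0.25, 0.17 and 0.11. The Tpm2 share of both tropomyosins was 41.4 ± 1.34% and 43.8 ± 1.71% (exact permutation p = 0.0571), and the Cnn2 share of both calponins 37.8 ± 2.15% and 33.6 ± 5.15% (exact permutation p = 0.171), in controls and Nr2f2 d/d (SD, n = 4 each).

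Among 13 genes of intermediate filaments, dense bodies and membrane attachment, 9 were higher, 4 were lower and 0 passed the adjusted threshold. Hspb7, a small heat shock protein of muscle, had 3.25, 3.17, 3.95 and 4.43 FPKM in control replicates 1 to 4, and 4.18, 7.35, 6.71 and 9.62 FPKM in Nr2f2 d/d replicates 1 to 4. Of the Nr2f2 d/d uteri 3 exceeded all controls, and replicate 1 lay within their range. The log2 fold change was 0.79 (95% interval 0.27 to 1.30, adjusted p = 0.103, limma). Csrp1, a LIM protein of actin bundles and the most abundant of the group, had 273, 219, 212 and 258 FPKM in control replicates 1 to 4, and 183, 262, 211 and 369 FPKM in Nr2f2 d/d replicates 1 to 4. The groups overlapped widely, and the log2 fold change was 0.05. Synm, an intermediate filament protein that pairs with desmin, had 9.30 ± 0.335 FPKM in controls and 6.89 ± 2.91 in Nr2f2 d/d. Below all controls lay 3 Nr2f2 d/d uteri and above them 1 (log2 fold change -0.49, adjusted p = 0.295, limma). Pdlim3, a PDZ and LIM protein, showed a log2 fold change of 0.34 (adjusted p = 0.248, limma). The log2 fold changes of the other 9, namely Des, Synpo2, Flna, Vcl, Pdlim7, Nexn, Dmd, Pgm5 and Hspb6, lay between -0.21 for Hspb6 and 0.15 for Pgm5. Ap3m1 on the opposite strand shares 25.5% of the exon bases of Vcl.

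Excitation and calcium handling held the other called member and had differences in both directions. Oxtr, the G protein-coupled receptor through which oxytocin contracts the myometrium, had 1.08, 2.34, 1.401 and 1.80 FPKM in control replicates 1 to 4, and 3.04, 4.54, 3.88 and 3.93 FPKM in Nr2f2 d/d replicates 1 to 4. Every Nr2f2 d/d uterus was above every control. The log2 fold change was 1.04 (standard error 0.192, adjusted p = 0.0366, limma). With each library left out in turn it ranged from 0.90 to 1.18, and the adjusted p passed 0.05 in 1 of the 8 fits, that without Nr2f2 f/f replicate 2, with a range of 0.0255 to 0.116. Without a filter on low values, the adjusted p was 0.0559. Oxtr occupies positions 112473683 to 112489943 of chromosome 6 (minus strand, mm10), and its mRNA does not tell which uterine cells express it.

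Pln, phospholamban, which restrains the calcium pump of the sarcoplasmic reticulum, had 5.58, 3.48, 3.82 and 6.06 FPKM in control replicates 1 to 4, and 5.32, 9.57, 7.36 and 13.9 FPKM in Nr2f2 d/d replicates 1 to 4. Replicate 1 of Nr2f2 d/d lay within the controls and the other 3 above them. The log2 fold change was 0.82 (standard error 0.287, adjusted p = 0.163, limma). Leaving out Nr2f2 d/d replicate 2, or replicate 2 or 3 of the controls, took it below the study's threshold. Cep85l and Gm47644 on the opposite strand share 64.7% of the exon bases of Pln, so its value is uncertain. Cacna1c, the pore of the L-type calcium channel, went the other way, with 6.02, 6.97, 6.13 and 7.48 FPKM in control replicates 1 to 4, and 4.57, 5.15, 5.22 and 5.99 FPKM in Nr2f2 d/d replicates 1 to 4. No Nr2f2 d/d uterus reached the lowest control, although the margin was narrow. Its log2 fold change was -0.32 (standard error 0.104, adjusted p = 0.139, limma). Kcnma1 and Kcnmb1, the pore and the beta subunit of the calcium-activated potassium channel that repolarises the muscle, showed log2 fold changes of 0.29 and 0.41 (adjusted p = 0.292 and 0.329, limma). The Kcnmb1 share of their sum was 72.2 ± 4.86% and 73.1 ± 3.92% (SD, n = 4 each, exact permutation p = 0.800). Ryr2, a calcium release channel, had 0.193, 0.261, 0.279 and 0.334 FPKM in control replicates 1 to 4, and 0.301, 0.177, 0.168 and 0.158 FPKM in Nr2f2 d/d replicates 1 to 4. The groups overlapped through Nr2f2 d/d replicate 1 (exact permutation p = 0.229).

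Neither regulator of transcription passed a threshold. Srf had 27.2, 29.98, 32.5 and 36.0 FPKM in control replicates 1 to 4, and 29.99, 35.3, 22.5 and 32.6 FPKM in Nr2f2 d/d replicates 1 to 4, a log2 fold change of -0.07 with a 95% interval of -0.41 to 0.27. The groups overlapped, with the lowest value in Nr2f2 d/d replicate 3. Myocd, myocardin, the muscle coactivator of SRF, had 1.115 ± 0.361 and 1.32 ± 0.366 FPKM (SD, n = 4 each) and a log2 fold change of 0.18 (adjusted p = 0.652, limma).

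The members moved together from uterus to uterus within each genotype. In Nr2f2 d/d, replicate 4 was the highest in 34 of 39 members and replicate 1 the lowest in 33, where these libraries were highest and lowest in 24.4% and 16.4% of all genes tested. In Nr2f2 f/f, replicate 4 was the highest in 32 members and replicate 2 the lowest in 22, against 25.9% and 40.3% of all genes. The median deviation from the group mean was -0.43 and 0.42 on the log2 scale in Nr2f2 d/d replicates 1 and 4, and -0.20 and 0.23 in Nr2f2 f/f replicates 2 and 4. The highest library exceeded the lowest by a median of 1.42-fold over the members in controls and 1.93-fold in Nr2f2 d/d, where the medians over all genes tested were 1.35 and 1.31. More than 2-fold lay between them in 4 members in controls and 17 in Nr2f2 d/d. The summed FPKM of the members was 3285 to 4603 in controls and 3045 to 5993 in Nr2f2 d/d. The difference in spread between genotypes was not tested. Without Nr2f2 d/d replicate 1, 7 members met the study's threshold, the 4 above with Cnn1 at a log2 fold change of 0.59, Kcnmb1 at 0.58 and Myl9 at 0.49, which is 7 of 38 beside 7.71% of all genes in that fit, and all 7 were higher, beside 3.82% of all genes. Without Nr2f2 d/d replicate 4, 21 members were higher, against 29 with all libraries. In that fit 5 members met the study's threshold, beside 10.1% of all genes, 4 of them higher (5.50% of all genes) and Synm lower (4.56%), at a log2 fold change of -0.71 (adjusted p = 0.0827, limma).

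**Figure D3:**
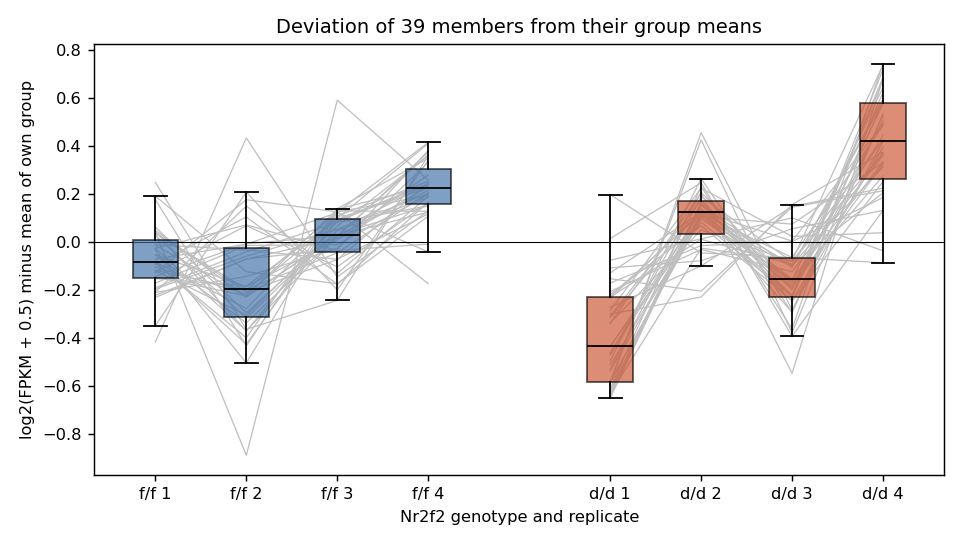
Deviation of log2(FPKM + 0.5) from the mean of its own group (y axis) in each uterus (x axis), with a grey line for each of the 39 members. Boxes show the median and quartiles over members and whiskers reach the farthest member within 1.5 box lengths. In Nr2f2 d/d the median runs from -0.43 in replicate 1 to 0.42 in replicate 4.

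Because the members moved together between libraries, each member was also set against Myh11 in the same library. On this scale 5 of 38 members were higher in every Nr2f2 d/d uterus than in any control, namely Actc1, Pln, Hspb7, Kcnmb1 and Cnn1, and 0 were lower in all. Of all genes tested, 0.831% were higher in this way and 0.971% lower. A gene that does not vary with Myh11 takes on the spread of Myh11 in such a ratio, so these shares are no measure of the members. The log2 ratio to Myh11 was higher in Nr2f2 d/d by 6.57 for Actc1, 0.83 for Pln, 0.81 for Hspb7, 0.41 for Kcnmb1 and 0.33 for Cnn1. Each had an exact permutation p of 0.0286, the smallest that 4 against 4 allow, and with adjustment over the 38 comparisons none was below 0.217. Pln followed Myh11 closely in Nr2f2 d/d, with log2 ratios of -4.20, -4.16, -4.16 and -4.19 in replicates 1 to 4, and less so in Nr2f2 f/f, with -4.50, -5.35, -5.25 and -4.95. The log2 ratio of Oxtr was higher by 1.21, with 3 of 4 Nr2f2 d/d uteri above all controls (exact permutation p = 0.0571). That of Synm was lower by a difference of -0.58 (exact permutation p = 0.0571). With the mean of Myh11, Acta2, Actg2, Des and Cnn1 as the reference, the groups still did not overlap in Actc1, Pln, Hspb7 and Cnn1, itself in the reference, beside 0.614% of all genes that were higher in this way. On that scale Kcnmb1 no longer separated (0.29, exact permutation p = 0.171), and Synm and Nexn were lower in all Nr2f2 d/d uteri (-0.70 and -0.25, exact permutation p = 0.0286 for each), as were 1.80% of all genes tested. In the other 31 members the log2 ratio to Myh11 differed between the genotypes by -0.48 (Ryr2) to 0.36 (Kcnma1), with 20 higher and 11 lower. Among the abundant ones the difference was 0.26 for Myl9, 0.20 for Actg2, 0.06 for Acta2, 0.04 for Des, -0.05 for Tpm1, -0.13 for Tagln and -0.22 for Cald1.

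**Figure D4:**
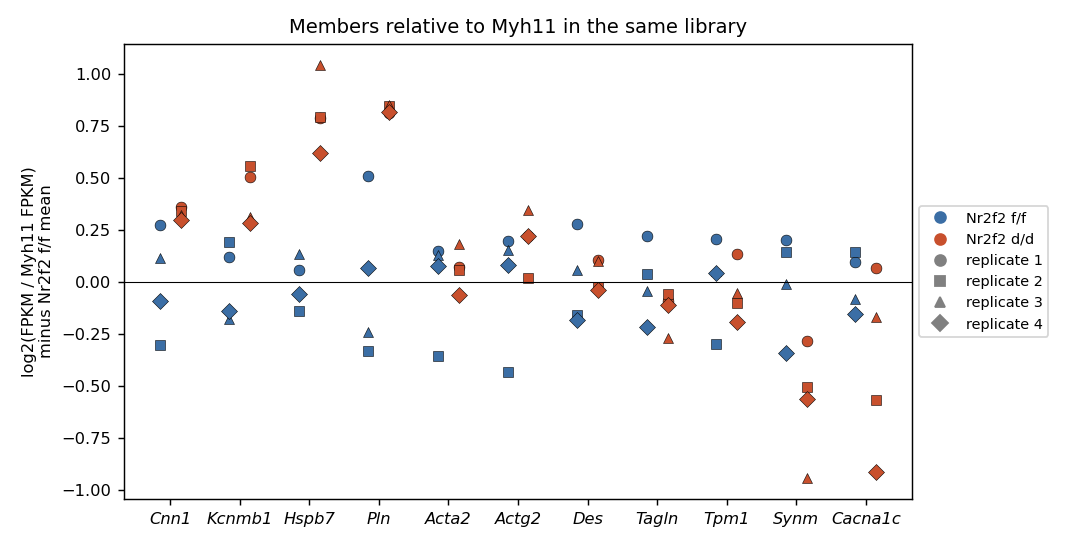
Log2 ratio of 11 members to Myh11 in the same library, minus the Nr2f2 f/f mean of that ratio (y axis), with marker shape for the replicate. Pln, Hspb7, Kcnmb1 and Cnn1 lie above all controls in Nr2f2 d/d, and Acta2, Actg2, Des, Tagln and Tpm1 overlap.

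Other genes of the contraction pathway were counted from lists written from general knowledge, but with earlier results of these data known. Among 41 tested genes of contraction signalling 17 were higher and 24 lower, 1 passed the adjusted threshold in each direction, and the median log2 fold change was -0.09. Avpr1a, a vasopressin receptor related to Oxtr, rose from 0.437 ± 0.128 to 1.11 ± 0.148 FPKM (log2 fold change 0.79, adjusted p = 0.0268, limma). Gucy1b1, a subunit of the nitric oxide receptor that relaxes smooth muscle, fell from 5.29 ± 0.535 to 3.77 ± 0.200 FPKM (log2 fold change -0.44, adjusted p = 0.0481), and the cation channel gene Trpc4 showed a log2 fold change of 0.60 (0.0737). Of 20 tested SRF partners, 15 were lower and 5 higher, 0 passed the adjusted threshold, and Elk4 at -0.70, Smad3 at -0.54 and Mef2d at -0.23 had the smallest p (adjusted p = 0.0721, 0.124 and 0.130, limma). Of 37 adhesion and linker genes, 19 were higher and 18 lower. Sorbs2, an adaptor of actin and adhesion proteins, fell by 0.55 on the log2 scale (adjusted p = 0.0416), and Itga8 and Sgce had 0.65 and 0.34 (0.0798 and 0.0847, limma). Of 28 other smooth muscle genes, 19 were higher and 9 lower, and Cryab, a small heat shock protein, rose from 8.27 ± 1.26 to 16.3 ± 4.44 FPKM (log2 fold change 0.92, adjusted p = 0.0416, limma). Mrvi1 and Hspb2 of that list showed log2 fold changes of 0.54 and 0.57 (adjusted p = 0.0726 and 0.0736). Of 11 cytoplasmic actins and non-muscle myosins, 9 were higher and 0 passed, with Myl12b at 0.38, Myh14 at 0.88 and Myl12a at 0.19 (adjusted p = 0.115, 0.141 and 0.203, limma).

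Markers of other cell types were also counted, without a test of any list as a whole. Of all genes tested, 1.09% passed the adjusted threshold in the higher direction and 1.53% in the lower. Pericyte and vascular smooth muscle markers were lower in 9 of 11 genes, with a median of -0.39 on the log2 scale and summed FPKM of 244 to 303 in controls and 183 to 212 in Nr2f2 d/d. Rgs5 fell by 0.67 on the log2 scale (adjusted p = 0.0154, limma), and Rgs4 and Kcnj8 had -0.53 and -0.44 (0.0736 and 0.103). The largest part of the pericyte sums was Rgs5, with means of 144 FPKM in controls and 90.3 in Nr2f2 d/d. Of 10 endothelial markers, 7 fell, namely Cdh5, Esam, Pecam1, Erg, Egfl7, Emcn and Kdr, with a median of -0.73 and sums of 349 to 465 and 221 to 276 FPKM. All 12 epithelial markers were higher, by 0.0079 to 1.43 on the log2 scale with a median of 0.32. Krt8 and Elf3 passed, with Krt19 next and sums of 853 to 913 and 1154 to 1246 FPKM. Epcam and Krt18 were nearly level, at means of 91.9 and 93.5 FPKM and of 127 and 130 FPKM in controls and Nr2f2 d/d. Stromal markers split into 6 higher and 6 lower, and Dcn rose by 0.79 on the log2 scale, while Vcan had -0.91 and Col1a1 1.67 without passing (adjusted p = 0.0619 and 0.0626, limma). Their sums were 1683 to 2091 and 2501 to 5083 FPKM. The 6 higher ones were Dcn, Lum, Col1a1, Col3a1, Col6a1 and Col6a2, which carried the rise of these sums. The highest sum was that of Nr2f2 d/d replicate 3, where Col1a1 alone had 1141 FPKM. Of 7 mesothelial markers 6 were higher and Msln rose, before Bnc1 and Upk3b, with sums of 73.5 to 102 and 94.4 to 119 FPKM. Of 8 leukocyte markers 7 were higher and 0 passed, with S100a8, Cd3e and Cd68 first and sums of 41.8 to 64.6 and 62.6 to 90.3 FPKM. Their part in the differences of the members was not tested.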

How the data were processed

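mRNA was measured in whole uteri of 8 mice, 4 in each group, by paired-end sequencing of 76 bases on TruSeq v2 libraries. The authors trimmed reads with cutadapt 1.12, aligned them to mm10 with STAR 2.5.2b and counted fragments per gene with featureCounts 1.5.0-p1, and deposited FPKM, and Cufflinks 2.0.2 is also named in the submitters' notes. The gene annotation, the strand setting and the FPKM formula are not given in the sources used here. Groups and replicate numbers are those of the sample titles. The members and lists were chosen with earlier results of these data known.

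FPKM of the 14323 genes averaging 0.5 or more were log2-transformed with 0.5 added, which shrinks the folds of low genes, and tested with limma 3.58.1 in R 4.3.3 (lmFit, eBayes with trend, two-sided, Benjamini-Hochberg over all genes), in place of the study's DESeq2 on counts, since FPKM are not counts. Shares and ratios were compared with two-sided exact permutation tests in Python 3.11.15, in which 4 against 4 cannot give a p below 0.0286. In simulated data for the 14323 genes, the fit recovered 95 of 102 genes changed 4-fold and 67 of 98 changed 2-fold, and 5 of its 167 calls were false. The simulated noise was independent between genes and held no shift shared by the genes of a library. These rates may therefore not hold for the real libraries, where the members moved together. Library totals were taken as the total at which 79.1% to 83.3% of the values of genes of 1 exon and at most 400 bases came within 0.05 of a whole fragment, against medians of 4.96% to 5.42% at other totals. Intervals and floors of 3 fragments cover counting error only.

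Values in every library are printed for members past either threshold and for the most abundant member of each role, and from each other list the 3 genes with the smallest p and any past the adjusted threshold are named. Values of single libraries of Cacna1c and Ryr2, the 76-base and motif counts, and the fragment ratio of Actc1 with each library left out, were added after the results were seen. The lists cover contraction signalling, SRF partners, adhesion and linker genes, other smooth muscle genes, cytoplasmic actins and non-muscle myosins, and markers of skeletal and cardiac muscle, pericytes, stroma, epithelium, endothelium, mesothelium and leukocytes. Exon overlaps and coordinates come from GENCODE vM21, and promoter windows from RefSeq on GRCm38.p6. A planned comparison of the actin proteins was not made. The alternatives were 0.1 or 1 added before the log2, no filter or a filter at 1 FPKM, quantile normalization or median-ratio scaling, robust eBayes or eBayes without trend, the replicate number as a block, another muscle reference, and each library left out in turn.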

Additional observations from a re-analysis of the deposited data

Results flagged for a closer look

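In 9 of 182 groups of 4 libraries examined among the named genes, 1 library lay apart from the other 3 by Dixon's test, which chance gives in about 1 of 20 groups. Hspb6 had 4.06 FPKM in Nr2f2 f/f replicate 2, where the other controls had 6.22 to 6.45. Ryr2 had 0.301 FPKM in Nr2f2 d/d replicate 1, the uterus with the lowest muscle levels, and 0.158 to 0.177 in the other Nr2f2 d/d uteri. Outside the members, the library that stood apart had 4.50 FPKM of Gucy1b1 in Nr2f2 f/f replicate 3 and 13.2 FPKM of Mef2d in Nr2f2 d/d replicate 4. It had 22.9 FPKM of Cryab, 10.5 FPKM of Kdr and 6.90 FPKM of Nr2f2 in Nr2f2 d/d replicate 3. It had 673 FPKM of Dcn in Nr2f2 d/d replicate 2 and 1.76 FPKM of Bnc1 in Nr2f2 d/d replicate 4.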

How the results depend on the processing

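Over 684 refits of the 38 members under the alternatives, 672 left the adjusted call as it was, 12 lost it and 0 reversed it. All 12 were in Actc1 or Oxtr, and most of them in Oxtr. The other 36 tested members had no adjusted call to lose, so the unchanged refits are mostly theirs. Signs changed without a call in 33 refits of 12 members. Members past the adjusted threshold numbered 2 under other added values, a higher filter, other scalings and other variance estimates, 1 without a filter, where Oxtr was lost, and 1 to 2 with each library left out. All genes past it ranged from 42 to 348 with a library left out, the lowest count without Nr2f2 d/d replicate 2. Members at the study's threshold ranged from 3 to 7 with a library left out, beside 7.55% to 10.1% of all genes, 7 without Nr2f2 d/d replicate 1, and 3 without Nr2f2 f/f replicate 2 or 3 or Nr2f2 d/d replicate 2, where Pln was lost. Their median log2 fold change ranged from 0.03 to 0.28, and was 0.08 with quantile normalization, where 23 members were higher. With 3 against 4 libraries the exact tests cannot go below 0.0571. With the replicate block, 1 gene passed the adjusted threshold by title numbers and 0 by column numbers, with 0 and 0 members, and the adjusted p was 0.0556 and 0.0878 for Actc1 and 0.0746 and 0.0918 for Oxtr, where the log2 fold changes were 3.09 and 3.19 and 1.04 and 1.17. At the study's threshold 4 and 3 members passed, and Pln was lost by column numbers. Deviations of same-numbered libraries correlated by -0.20 to 0.05 for titles and -0.20 to 0.15 for columns, and nothing in the labels ties them to a litter or batch. Depth limits Actc1 in the controls, where its level rests on about 22 fragments.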
